A study of Homo sapiens with 4 samples.

Results

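The genes described here are a list of 28 DNA repair and checkpoint genes: the BRCA1 complex and other factors of homologous recombination, the Fanconi anaemia pathway, mismatch repair and the checkpoint kinases. They were chosen by name, with earlier results of these data known, so the shares of all genes beside their counts are a description only. Each was read from the probe set with the highest mean level. Of the 28 genes 24 had a probe set of their own and are analysed, out of 19775 genes on the arrays. The other 4 are not analysed here. All 24 reached the level minimum, a mean log2 intensity of at least 5 over the 4 arrays, as did 13794 genes in total. RNA came from A375 and SK-MEL-28, established human melanoma lines with a mutant BRAF kinase, 48 h after transfection, and each group was 1 array: A375 with siRNA for ZIC5, A375 with negative control siRNA, SK-MEL-28 with siRNA for ZIC5 and SK-MEL-28 with negative control siRNA. ZIC5 is a zinc-finger transcription factor, and the siRNA sequences are not given in the sources used here. With 1 array in each group, no contrast of siRNAs inside a line could be checked against replicates, and none has a p-value.

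Homologous recombination repairs broken DNA by copying an intact sister strand. The break is sensed by the MRN complex, its ends are cut back to single strands that RPA coats, and BRCA1, PALB2 and their partners help these strands search for the matching sequence. The Fanconi proteins unhook crosslinks between the strands, mismatch repair corrects copying errors, and the kinases ATM, ATR, CHEK1 and CHEK2 halt the cell cycle while repair proceeds. Many of these genes are known to be transcribed mostly in S and G2 phase, when sister copies exist. In cell extracts, fewer cells with a transcript and less transcript per cell cannot be told apart.

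The arrays had medians between 38.4 and 39.4 intensity units. The targeted gene gave no check of the labels: the ZIC5 intensity was 14.1 with ZIC5 siRNA against 16.8 with control siRNA in A375, and 15.5 against 21.4 in SK-MEL-28, all under the level minimum of 32. The summed intensity of 9 melanocyte lineage genes was 2982 with ZIC5 siRNA against 2211 with control siRNA in A375, and for SK-MEL-28 it was 46422 against 49444. Within that list the pigment cell protein PMEL was at 35.9 and 32.4 in A375, near the minimum, while the neural crest factor SOX10 was at 1660 and 895 there. The rise of the A375 sum followed SOX10. In A375 6 of the 9 genes were higher and 3 lower, beside 48.5% and 51.2% of all genes. The lower ones were MITF, at 235 against 357, TYR, at 26.7 against 33.5, and S100B, at 334 against 413. Markers of other cell types were also summed, ZIC5 siRNA against control siRNA. The 6 fibroblast genes gave 305 against 496 in A375, and 807 against 1168 in SK-MEL-28. The 4 leukocyte genes gave 275 against 528 in A375, and 109 against 122 in SK-MEL-28. The 5 epithelial genes gave 4594 against 4592 for A375, and 579 against 565 for SK-MEL-28, and the 4 endothelial genes gave 169 against 188 for A375, and 154 against 147 for SK-MEL-28. Most of the epithelial sum was KRT18, at 4213 against 4176 in A375 and 433 against 420 in SK-MEL-28. The fibroblast sum followed LUM, at 14.9 against 162 in A375 and 498 against 875 in SK-MEL-28, and the A375 leukocyte sum followed LYZ, at 195 against 434, while CD3E was at 59.6 against 56.4 there. The defining markers PTPRC, CD14, EPCAM, CDH1, CDH5, COL1A2 and COL3A1 were under the level minimum, and the part of these markers in the results below was not tested.

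In A375 most of the repair genes were lower with ZIC5 siRNA, and in SK-MEL-28 most were slightly higher. The median log2 difference over the 24 genes, ZIC5 siRNA minus control siRNA, was -0.57 in A375, where the median over all 13794 genes was -0.01, and 0.21 in SK-MEL-28, where it was 0.00. In A375 20 of the 24 genes were lower, beside 51.2% of all genes, and 4 were higher, beside 48.5%. Of the 24 genes 11 were at least 1.5-fold lower, which 12.9% of all genes were. Those 11 were BRCA1, BARD1, PALB2, RAD54L, BRIP1, NBN, RPA1, FANCG, FANCI, FANCL and MSH6, although only 1 of 4 NBN probe sets at the level minimum had that sign. At least 1.5-fold higher in A375 were XRCC2, RAD50 and ATM, 3 genes of 24 beside 12.1% of all genes. Changes past 2-fold were few: RAD54L was the only gene at least 2-fold lower (5.05% of all genes) and ATM the only one at least 2-fold higher (3.89% of all genes). In SK-MEL-28 15 of the 24 were higher, beside 50.2% of all genes, and 9 lower, beside 49.6%, but EXO1 alone was at least 1.5-fold higher, beside 4.2% of all genes, and 0 were at least 1.5-fold lower, beside 6.41%. No listed gene was 2-fold lower there, as 2.12% of all genes were, or 2-fold higher, as 0.776% were. The middle of the A375 values, between the quartiles, ran from -0.75 to -0.44 for the repair genes and from -0.32 to 0.30 for all genes. The corresponding SK-MEL-28 quartiles were -0.12 and 0.28 for the repair genes, and -0.19 and 0.19 for all genes. Over all genes the SD of the difference was 0.60 for A375 and 0.39 for SK-MEL-28, and probe sets of one gene differed with a median SD of 0.25 in A375 and of 0.15 in SK-MEL-28.

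**Figure D1:**
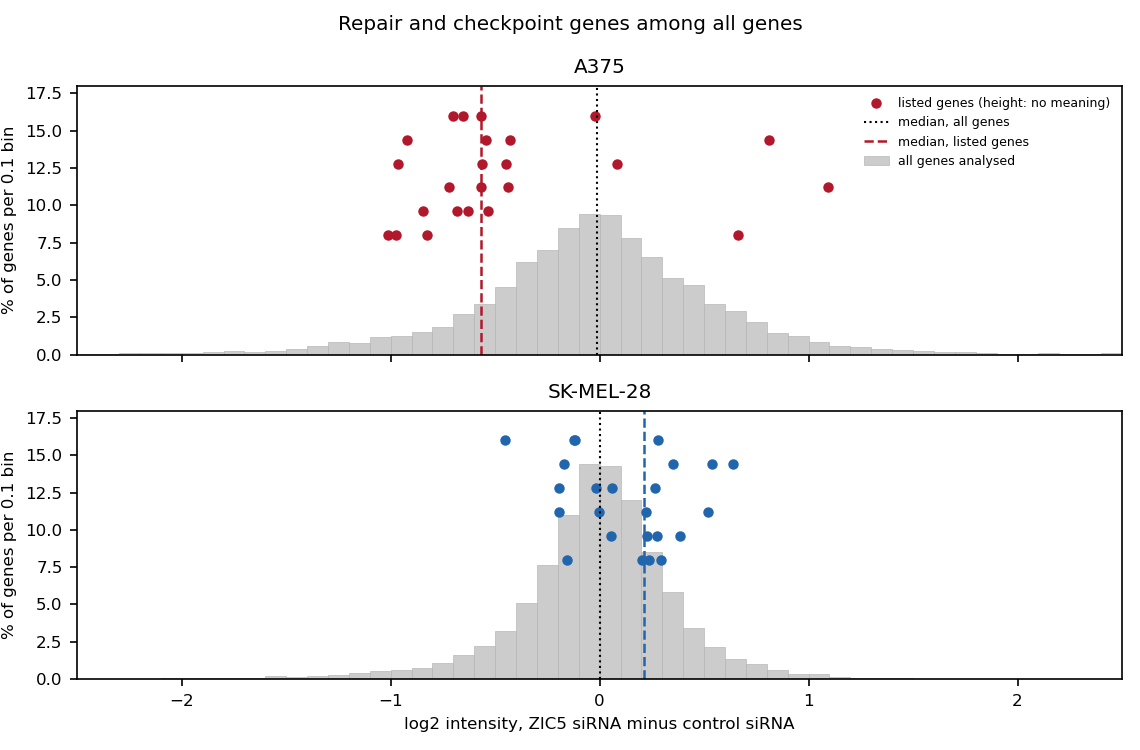
Percent of all 13794 genes per bin of 0.1 log2 units of the siRNA difference (grey bars), with the 24 repair and checkpoint genes as points whose height has no meaning, in A375 (top) and SK-MEL-28 (bottom). The dashed median of the repair genes is at -0.57 (A375) and 0.21 (SK-MEL-28), and the dotted median of all genes is near 0 in both.

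Since most of the listed genes were lower together in A375, their promoter windows were searched for words known from cell cycle promoters. Windows ran from 250 bases before to 50 after each RefSeq start (GRCh38.p14), and both strands were read. Of the 24 genes 20 were matched, all but NBN, RAD54B, RPA2 and FANCI. The E2F words searched were TTTCCCGC together with TTTGGCGC and with TTTCGCGC. At least 1 of them was found in EXO1, MSH6, FANCC and XRCC2, 4 of 20 genes by the first window listed for each, and in the first window of 2.79% of 27305 genes. The CHR words, bound by the DREAM complex, were TTTGAA and also TTCGAA. One of these was found in ATM, BRIP1 and FANCC, 3 of 20 genes, and in 16.6% of all genes, counted alike. The CCAAT box, read as CCAAT or its complement, was found in 10 of 20 genes and in 35.7% of all genes, counted alike. The 4 promoters with an E2F word are printed 5′ to 3′ on the gene's strand, as are those of RAD54L and ATM, the genes past 2-fold in A375. Capitals mark the E2F and CCAAT words, which did not overlap in these stretches. Positions count from the start as 1, with -1 the base before it. The EXO1 stretch, chr1:241848104-241848233 (plus strand), has its E2F word at bases 5 to 12. The MSH6 stretch, chr2:47783045-47783174 (plus strand), has one at bases 4 to 11 and a CCAAT box on the other strand. The FANCC stretch, chr9:95317710-95317899 (minus strand), has one at -46 and another, on the other strand, at -172. The XRCC2 stretch, chr7:152676112-152676241 (minus strand), has one on the other strand at bases 22 to 29. RAD54L, chr1:46247588-46247717 (plus strand), has 2 CCAAT boxes, and ATM, chr11:108222867-108223066 (plus strand), has 1.
EXO1: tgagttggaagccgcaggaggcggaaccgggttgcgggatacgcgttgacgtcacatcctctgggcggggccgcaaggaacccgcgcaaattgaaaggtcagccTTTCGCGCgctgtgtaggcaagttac
MSH6: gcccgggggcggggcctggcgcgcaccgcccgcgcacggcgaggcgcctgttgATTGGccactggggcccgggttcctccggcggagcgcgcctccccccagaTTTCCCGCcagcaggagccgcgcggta
FANCC: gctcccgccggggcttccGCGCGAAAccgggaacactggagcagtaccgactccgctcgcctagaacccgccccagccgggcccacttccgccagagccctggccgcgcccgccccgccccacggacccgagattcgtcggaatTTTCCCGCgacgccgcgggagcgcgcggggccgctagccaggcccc
XRCC2: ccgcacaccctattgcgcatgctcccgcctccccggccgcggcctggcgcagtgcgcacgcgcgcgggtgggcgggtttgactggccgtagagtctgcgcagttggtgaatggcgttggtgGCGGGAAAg
RAD54L: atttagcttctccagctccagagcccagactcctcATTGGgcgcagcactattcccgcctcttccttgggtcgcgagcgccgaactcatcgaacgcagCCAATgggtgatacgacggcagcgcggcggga
ATM: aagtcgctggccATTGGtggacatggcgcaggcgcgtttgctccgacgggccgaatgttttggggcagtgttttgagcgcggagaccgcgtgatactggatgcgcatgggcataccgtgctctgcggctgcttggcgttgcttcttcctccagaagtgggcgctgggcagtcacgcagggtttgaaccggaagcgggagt
The 4 genes with an E2F word did not share a direction in A375, where EXO1, MSH6 and FANCC were lower and XRCC2 higher, and a matched word is a description of the sequence only.

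The BRCA1 complex was lower in A375. BRCA1, the ubiquitin ligase subunit that directs breaks to recombination, had an intensity of 378 with ZIC5 siRNA against 670 with control siRNA in A375, and 544 against 472 in SK-MEL-28. Its partner BARD1, which BRCA1 needs to be stable and active, had 171 against 308 in A375 and 447 against 343 in SK-MEL-28. Both proteins' genes were thus lower in A375, with log2 differences of -0.83 for BRCA1 and -0.85 for BARD1, and slightly higher in SK-MEL-28, with 0.20 for BRCA1 and 0.38 for BARD1. PALB2, a scaffold that binds BRCA1, had 271 against 447 in A375 and 447 against 511 in SK-MEL-28, lower in both lines by -0.72 and -0.19. The signs held on the other probe sets: both BRCA1 probe sets at the level minimum were between -0.83 and -0.77 in A375, and all 3 for BARD1 were at -0.85 or lower there, and in SK-MEL-28 between 0.38 and 0.42.

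The strand exchange factors and the RAD54 motors did not move as one. RAD54L, a motor protein that moves along DNA and aids strand exchange, had 125 with ZIC5 siRNA against 253 with control siRNA in A375, a 2.02-fold difference, and 243 against 198 in SK-MEL-28. Its relative RAD54B had 186 against 270 in A375 and 224 against 185 in SK-MEL-28. Both motors were thus lower in A375, and in SK-MEL-28 they were higher by 0.30 and 0.27. RAD51C, a strand exchange factor that forms complexes with XRCC2 and with XRCC3, had 434 against 641 in A375 and 473 against 542 in SK-MEL-28, and its second probe set was at -0.72 and 0.14. XRCC2 went the other way: it had 126 against 71.7 in A375 and 48.2 against 54.3 in SK-MEL-28. It was thus 1.76-fold higher in A375, on a probe set whose name carries the x suffix with which Affymetrix marks probes that may match other transcripts. XRCC3, the partner of RAD51C, had 57.1 against 58.0 in A375 and 55.9 against 60.6 in SK-MEL-28, differences of -0.02 and -0.12, smaller than the spread between probe sets of one gene.

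The helicases and the nuclease were lower in A375 and higher in SK-MEL-28 without exception. BRIP1, the helicase that binds BRCA1, had 139 with ZIC5 siRNA against 271 with control siRNA in A375 and 191 against 159 in SK-MEL-28. BLM, the helicase that dissolves crossed strands, had 168 against 227 in A375 and 347 against 243 in SK-MEL-28. EXO1, which chews back the cut strand in recombination and in mismatch repair, had 292 against 426 in A375 and 279 against 179 in SK-MEL-28. BRIP1 was nearly 2-fold lower in A375 (-0.97) but only 0.26 higher in SK-MEL-28, while for BLM and EXO1 the SK-MEL-28 difference, 0.52 and 0.64, was the greater in size. EXO1 thus had the highest SK-MEL-28 difference of the 24 genes.

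Among the break sensors the probe sets did not give one answer. RAD50, the coiled-coil subunit that tethers broken ends, had 438 with ZIC5 siRNA against 277 with control siRNA in A375 and 348 against 295 in SK-MEL-28. It was the only one of the 24 genes higher in both lines. The 3 probe sets for RAD50 at the level minimum were at 0.66, 0.78 and 0.07 in A375, and between 0.16 and 0.31 in SK-MEL-28. Medians of their levels, taken on each array, gave 0.34 in A375, a value of no single probe set. NBN, the subunit that recruits ATM, had 665 against 1045 in A375 and 545 against 747 in SK-MEL-28 on its highest probe set, lower in both. The other 3 NBN probe sets at the level minimum were instead higher in A375, by 0.50, 0.42 and 0.29, with SK-MEL-28 differences of 0.09, -0.08 and 0.09. The direction of NBN therefore depends on the probe set. MRE11, the nuclease of the same complex, is no listed member and had differences of -0.93 and -0.15. The single-strand binding subunits RPA1 and RPA2 had clearer values: RPA1 had 1409 against 2261 in A375 and 2441 against 2354 in SK-MEL-28, and RPA2 had 918 against 1362 and 1356 against 1162. Both were lower in A375, by -0.68 and -0.57.

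**Figure D2:**
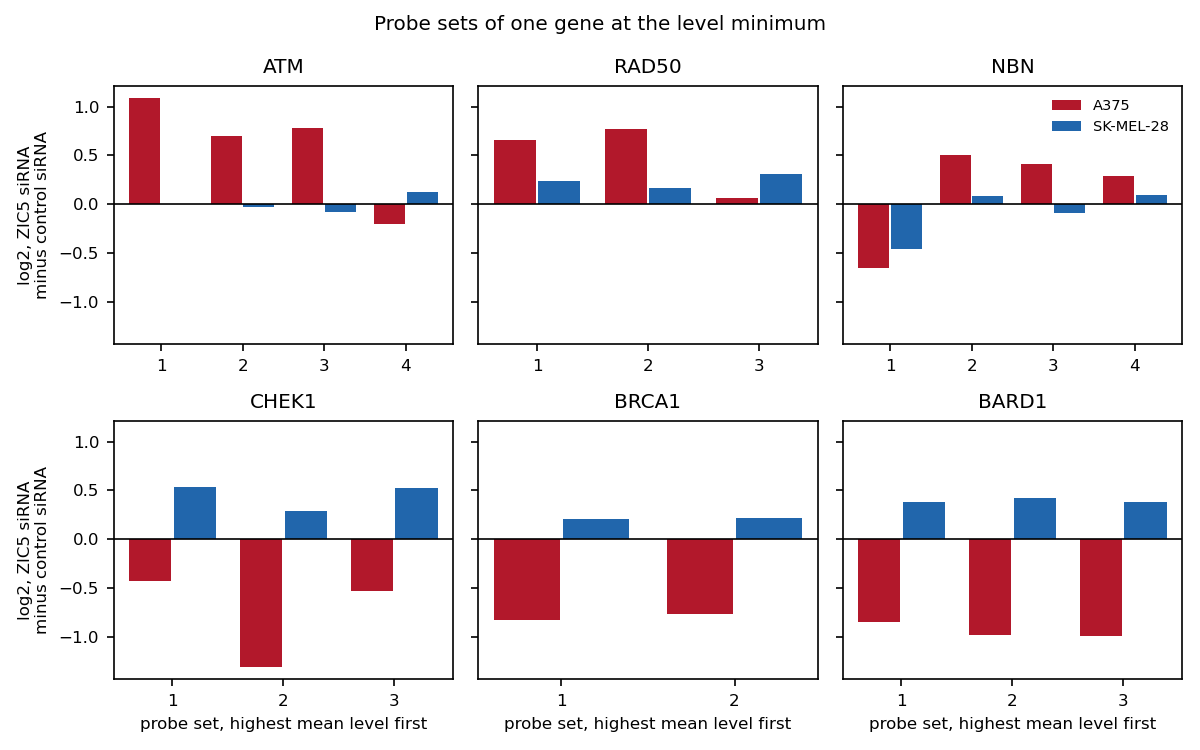
Log2 siRNA difference (ZIC5 siRNA minus control siRNA) of each probe set at the level minimum for 6 genes, with bars for A375 (red) and SK-MEL-28 (blue) and the probe set with the highest mean level first. BRCA1, BARD1 and CHEK1 keep their signs on every probe set shown, while NBN is at -0.65 in A375 on the first and above 0 on the other 3.

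The Fanconi genes had the lowest median of the subgroups with more than 3 genes, -0.81 in A375 over 4 genes, and 0.17 in SK-MEL-28. FANCL, the ubiquitin ligase of the pathway, had 576 with ZIC5 siRNA against 1132 with control siRNA in A375 and 1113 against 1240 in SK-MEL-28. FANCG, a subunit of the core complex that carries this ligase, had 174 against 330 in A375 and 232 against 182 in SK-MEL-28. FANCI, one of the proteins that the ligase marks, had 530 against 861 in A375 and 1704 against 1403 in SK-MEL-28. All 3 were at least 1.5-fold lower in A375 on these probe sets, and FANCG and FANCI were higher in SK-MEL-28. The other FANCI probe sets at the level minimum were at -0.41 and -1.35 in A375, the first of them under 1.5-fold, and at 0.42 and -0.12 in SK-MEL-28. FANCC, another core subunit, had 135 against 185 in A375 and 171 against 164 in SK-MEL-28, and its SK-MEL-28 difference of 0.06 lies within the spread between probe sets. In mismatch repair, MSH6, which with its partner recognises single mispaired bases, had 1208 against 1867 in A375 and 1556 against 1329 in SK-MEL-28, and both its probe sets at the level minimum were lower in A375 and higher in SK-MEL-28.

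The checkpoint kinases split. ATM, the kinase switched on by double-strand breaks, had 430 with ZIC5 siRNA against 202 with control siRNA in A375, 2.13-fold higher, and 612 against 613 in SK-MEL-28. That probe set also carries the x suffix, but 2 others without it gave 0.70 and 0.78 in A375, and the last, near the level minimum, gave -0.21. The mean over all 6 ATM probe sets, of which 4 were at the level minimum, was 0.44 in A375. Medians of the levels of those 4, taken on each array, gave 0.81. ATM did not reach 2-fold by either, nor 1.5-fold by the mean. ATR, which answers to stalled replication, had 909 against 857 in A375 and 871 against 883 in SK-MEL-28, differences of 0.09 and -0.02 that are within the spread between probe sets. CHEK1, the effector kinase below ATR, had 362 against 488 in A375 and 198 against 137 in SK-MEL-28. It was thus lower in A375 and higher in SK-MEL-28 on all 3 CHEK1 probe sets at the level minimum, which lay between -1.31 and -0.43 in A375, and between 0.29 and 0.54 in SK-MEL-28. CHEK2, the effector below ATM, had 106 against 158 in A375 and 247 against 269 in SK-MEL-28, lower in both. In A375 ATM was thus higher, with CHEK1 and CHEK2 lower.

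**Figure D3:**
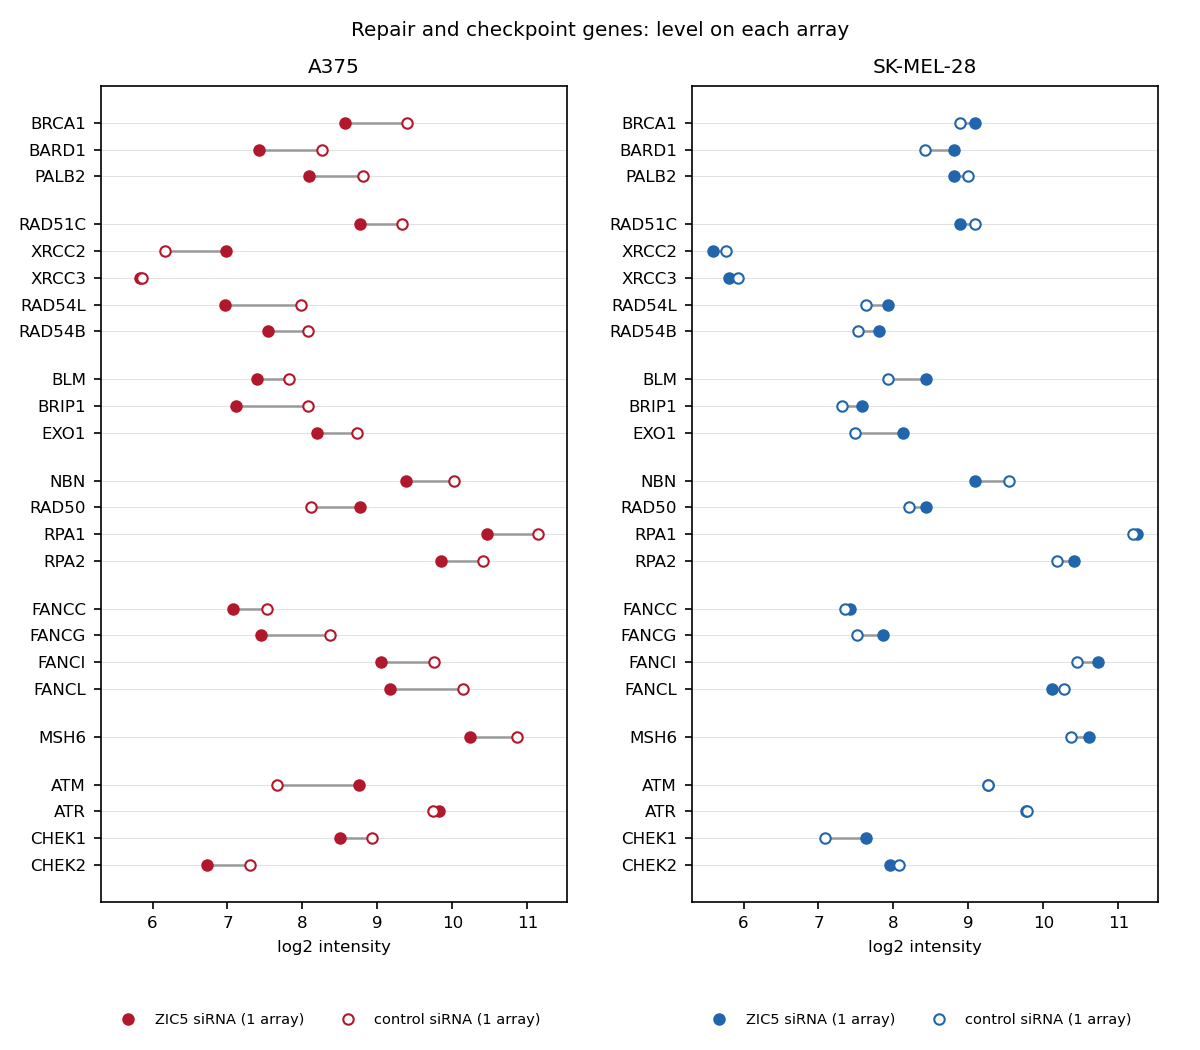
Log2 intensity of the 24 genes on each of the 4 arrays, by subgroup from the BRCA1 complex at the top to the checkpoint kinases at the bottom, with filled points for ZIC5 siRNA and open points for control siRNA in A375 (left) and SK-MEL-28 (right). The filled points lie to the left for 20 of 24 genes in A375 and to the right for 15 of 24 in SK-MEL-28.

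The lines responded differently at the level of single genes. The A375 difference minus the SK-MEL-28 difference had a median of -0.80 over the 24 genes, where all genes had -0.00, and 19 of 24 were below 0, as 50.3% of all genes were. It was at or below -1 for BRCA1, BARD1, RAD54L, BRIP1, EXO1 and FANCG, 6 of 24 genes beside 3.2% of all genes. RAD54L had the lowest value, -1.31, and ATM the highest, 1.09. Of the 24 genes 14 were lower in A375 and higher in SK-MEL-28, a combination found in 18.6% of all genes, 6 were lower in both (32.5% of all genes), 3 were higher in A375 and lower in SK-MEL-28 (17% of all genes) and RAD50 was higher in both (31.5% of all genes). In 13 genes the signs were opposite and each difference exceeded that line's median SD between probe sets, beside 8.74% of all genes. With 1 array per group an interaction left no residual degrees of freedom, so this difference between the lines was not tested.

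**Figure D4:**
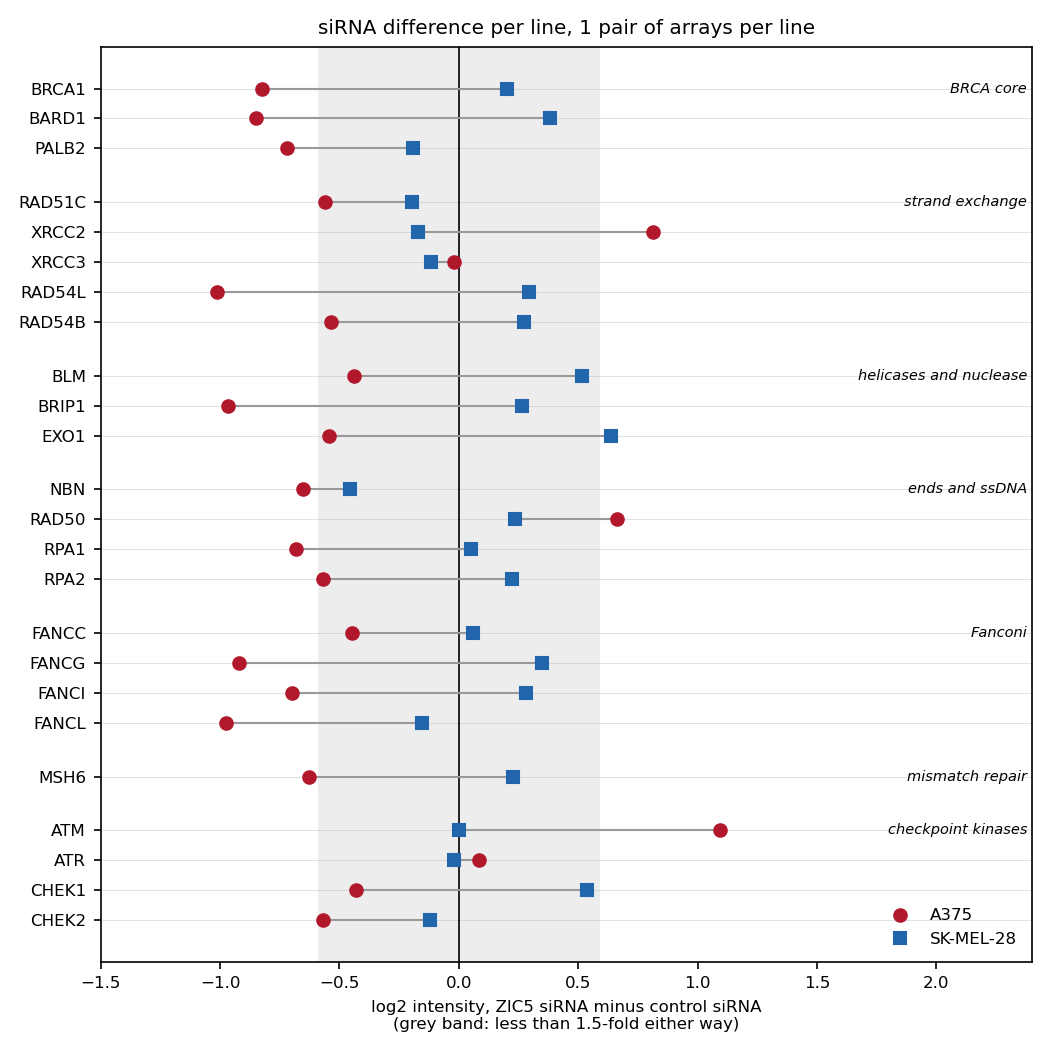
Log2 siRNA difference of each of the 24 genes in A375 (circles) and SK-MEL-28 (squares), ordered by subgroup, with a grey band for less than 1.5-fold either way. The circles of 11 genes lie left of the band and those of XRCC2, RAD50 and ATM right of it, while EXO1 has the only square outside it.

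The siRNA effect over both lines was estimated by an additive limma model of siRNA and line, where the agreement of the lines is the only replication. No repair gene passed a limma adjusted p of 0.05, nor did any of the 13794 genes (0% called). The lowest limma adjusted p of the 24 was 0.355 for NBN, with a mean difference of -0.55 (SE 0.17, 95% interval -1.02 to -0.09), and it was lower in both lines on that probe set only. NBN was also the only member with an unadjusted p under 0.05, 1 of 24 beside 13.2% of all genes. The mean differences of FANCL (-0.57, SE 0.26), PALB2 (-0.46, SE 0.22), RAD50 (0.45, SE 0.20) and RAD51C (-0.38, SE 0.19) were next, with limma adjusted p between 0.426 and 0.449. For genes of opposite sign in the lines the mean says little: BRCA1 had -0.31 (SE 0.31, 95% interval -1.19 to 0.56) and EXO1 0.05 (SE 0.35, interval -0.94 to 1.03). The median SE of the repair genes was 0.26, against 0.18 for all genes.

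Levels of the same gene also differed between the lines without ZIC5 siRNA. With control siRNA, CHEK1 was 3.57-fold higher in A375 than in SK-MEL-28, and ATM 3.03-fold lower, on the probe sets used. EXO1 was 2.37-fold higher in A375, FANCG 1.81-fold and BRIP1 1.70-fold higher, while CHEK2 was 1.71-fold and FANCI 1.63-fold lower. The limma line coefficient, A375 minus SK-MEL-28 over both siRNAs, passed for CHEK1 (1.35, SE 0.30, limma adjusted p = 0.0456) and CHEK2 (-0.99, SE 0.21, limma adjusted p = 0.0401), 2 of 24 genes, beside 27.7% of all genes. With no level minimum neither passed, and with the mean over all probe sets 1 member did. CHEK1 had the A375 sign on all 3 of its probe sets with control siRNA, at 1.84, 1.06 and 2.13, but the second was at -0.55 with ZIC5 siRNA. The FANCI probe sets did not share a sign with control siRNA, at -0.70, -0.72 and 0.39. Those of ATM at the level minimum were at -1.60, -1.01, -1.42 and 0.13. FANCI (-1.19, SE 0.29, limma adjusted p = 0.0544), ATM (-1.06, SE 0.33, limma adjusted p = 0.0894) and XRCC2 (0.89, SE 0.30, limma adjusted p = 0.103) did not pass. Those 5 genes were the ones with an unadjusted p under 0.05, beside 42.4% of all genes. The SE of this coefficient rises with the unequal siRNA response of the lines, since 1 additive fit served both. With ZIC5 siRNA 7 of the 24 genes were higher in A375 than in SK-MEL-28, beside 50.6% of all genes, and with control siRNA 13 were, beside 52%, a share near that of all genes. The median difference between the lines, A375 minus SK-MEL-28, was -0.44 with ZIC5 siRNA and 0.20 with control siRNA, against 0.01 and 0.03 over all genes.

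Other genes of the same pathways are given as log2 differences, A375 before SK-MEL-28, and their counts stand beside 12.9% of all genes at least 1.5-fold lower in A375 and 12.1% at least 1.5-fold higher. Lower by any amount in A375 were 16 of 26 further recombination genes, 10 of 15 Fanconi, 5 of 7 mismatch repair and 16 of 20 checkpoint genes, beside 51.2% of all genes. Of 26 further recombination genes 8 were at least 1.5-fold lower and 3 higher in A375, with a median of -0.16, and 0.12 in SK-MEL-28. RMI2, a partner of BLM, had -1.20 and -0.18, RAD51AP1, which aids strand exchange, had -1.14 and 0.15, and SWI5 had 0.64 and 0.58. Of 15 further Fanconi genes 5 were at least 1.5-fold lower and 0 higher in A375, with medians of -0.26 and 0.11. FANCB, a core subunit, had -1.17 and 0.14, the ubiquitin-conjugating enzyme UBE2T had -0.97 and 0.11, RFWD3 had -0.78 and -0.03, and MAD2L2 had 0.18 and 0.71. Of 7 further mismatch repair genes 2 were so lower in A375, with medians of -0.53 and 0.14, among them the polymerase subunit POLD1 with -0.97 and -0.11 and MSH3 with -0.70 and -0.18, the MSH3 signs being those of 1 of 2 probe sets in each line. RFC1 had 0.04 and 0.59 and PMS1 -0.51 and 0.14. In SK-MEL-28 only 1 of 3 probe sets had the sign given for FANCB and for PMS1. Of 20 further checkpoint genes 7 were so lower and 1 higher in A375, with medians of -0.35 and 0.17. TIMELESS, of the fork protection complex, had -1.17 and -0.07, the phosphatase CDC25C had -1.17 and 0.26, ETAA1 had -0.63 and -0.29, and WEE1, the kinase that restrains mitotic entry, had 0.44 and 0.65. Only 1 of 2 TIMELESS probe sets had the SK-MEL-28 sign given. None of the genes in these or the following lists passed a limma adjusted p of 0.05. At a limma unadjusted p under 0.05 there were 8 among the 111 genes of the repair lists, these and those of the next paragraph. Base excision and nucleotide excision repair held 3 of them each. There were 2 among the 20 S phase genes, 1 among the 16 mitosis genes and 3 among the 16 E2F and DREAM factors. Of all genes 13.2% passed.

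Repair pathways that work outside recombination were read in the same way. Of 17 base excision repair genes 7 were at least 1.5-fold lower and 1 higher in A375, with a median of -0.54, and 0.08 in SK-MEL-28. The glycosylases NEIL3 and NEIL2 had -2.23 and -0.30, and -1.28 and -1.01, PARP2, a sensor of nicks, had -0.96 and -0.22, and the gap-filling polymerase POLB had 0.87 and 0.38. Of 17 nucleotide excision repair genes, which remove bulky and ultraviolet lesions, 15 were higher in A375, beside 48.5% of all genes, and 13 were higher in SK-MEL-28, beside 50.2%, with medians of 0.37 and 0.17. ERCC5, which cuts on the far side of the lesion, had 1.16 and 0.37, the damage verifier XPA 0.78 and 0.70, and the TFIIH subunits GTF2H1 and GTF2H3 1.04 and 0.20, and 0.90 and 0.28. Of 9 end-joining genes 1 was at least 1.5-fold lower and 1 higher in A375, near the shares of all genes, with medians of -0.12 and -0.04. XRCC4 had -1.08 and -0.33, LIG4, the ligase it binds, had 0.65 and 0.08, and the Ku subunits XRCC6 and XRCC5 had -0.42 and -0.11, and -0.33 and -0.18. The SK-MEL-28 signs given were those of 1 of 2 probe sets for LIG4 and 1 of 3 for XRCC5. Over the 111 genes of these 7 repair and checkpoint lists together, 31 were at least 1.5-fold lower and 11 higher in A375, with medians of -0.21 and 0.11.

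Cell cycle genes were lower in A375 on the same arrays, while in SK-MEL-28 the S phase list had a median above 0, like the repair genes, and the mitosis and E2F lists had medians below 0. Their part in the repair gene differences was not tested. Of all genes 51.2% were lower in A375 and 5.05% at least 2-fold lower. In SK-MEL-28 50.2% were higher and 4.2% at least 1.5-fold higher. Of 20 S phase and replication genes 19 were lower in A375 and 16 higher in SK-MEL-28, with medians of -0.82 and 0.37. GINS1, CCNA2, CDC6 and CCNE2 led that list by mean difference with values of -2.01 and -0.59, -1.69 and -0.22, -1.28 and -0.25, and -0.92 and -0.43. They were the 4 genes of the list that were lower in SK-MEL-28, where the other 16 were higher, 5 of them at least 1.5-fold and the highest by 1.08. Of 16 mitosis and proliferation genes all were lower in A375, 15 of them at least 2-fold, with a median of -1.40, and in SK-MEL-28 the median was -0.06 with 7 higher. AURKA, PLK1, AURKB and CCNB1 had A375 differences between -2.02 and -1.58 and SK-MEL-28 differences between -0.29 and -0.18. Of 16 E2F and DREAM factors, regulators of cell cycle transcription, all were lower in A375, with medians of -0.66 and -0.11. E2F5 had -2.16 and -1.41, where its SK-MEL-28 intensity with ZIC5 siRNA, 24.4 against 64.7, was under the level minimum of 32. FOXM1 had -1.93 and -0.33, the pocket protein RBL2 -1.06 and -0.72, and E2F7 -0.69 and -1.02, the E2F7 signs on 1 of 2 probe sets in each line.

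**Figure D5:**
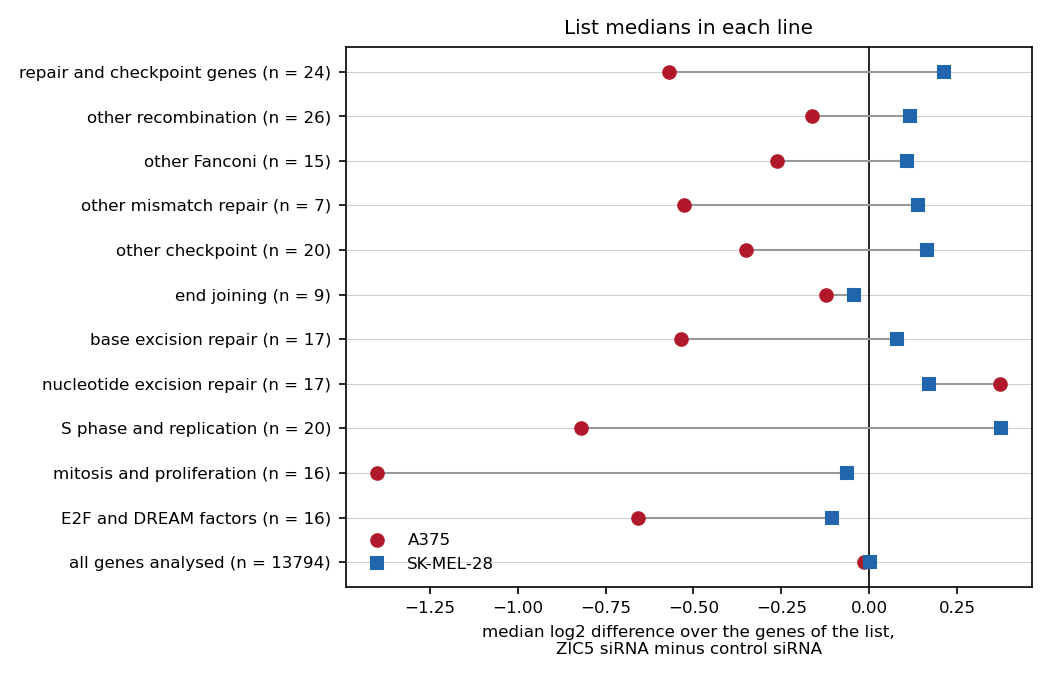
Median log2 siRNA difference over the genes of each list in A375 (circles) and SK-MEL-28 (squares), with the number of genes beside each name. The repair and checkpoint genes, at -0.57 and 0.21, and the S phase genes, at -0.82 and 0.37, lie on opposite sides of 0 in the lines, and nucleotide excision repair lies above 0 in both, at 0.37 and 0.17.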

How the data were processed

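Gene expression was measured on 4 Affymetrix arrays, 1 per group, and samples were grouped by their titles alone. For each array the authors deposited a linear intensity of every probe set. The submitters' processing notes name RMA and Affymetrix's Expression Console, and no version. These intensity values ran from 2.8 to 22531, and log2 was taken here. Of 54613 probe sets 41091 named 1 gene in the platform annotation, 1801 named several and were not used, and 11721 had no name in that table. Through entrez IDs 41037 matched RefSeq (GRCh38.p14), 54 did not, and 0 symbols changed. RMA makes the array distributions alike, so a shift shared by most genes would not be seen.

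Each gene was read from its highest probe set, at a level minimum of mean log2 5. Size rules were 1.5-fold and 2-fold. The additive fit (siRNA and line, in limma 3.58.1 under R 4.3.3, with a trended eBayes prior, Benjamini-Hochberg over 13794 genes at 0.05) had 1 residual and 2.85 prior degrees of freedom. It was tested on simulated data in which both lines had the same siRNA response, unlike most of the repair genes here. The labels do not name separate cultures, and no group was repeated. The p-values therefore set each effect against the unequal siRNA response of the lines, with the eBayes prior, and cover nothing more. The number of arrays limits the precision. Members, lists and motifs were chosen with earlier results of these data known. All members were described, and of each other list up to 4 genes with the greatest mean difference; NBN's partner MRE11 is among these. Alternatives were no level minimum, a minimum of 7, values under 5 set to 5, and quantile or cyclic loess normalization again. Others were the mean over all probe sets, also those under the level minimum, no line block and no trend. Leaving out NBN and the median of probe sets, taken over the levels at the minimum on each array, were chosen after seeing the data.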

Additional observations from a re-analysis of the deposited data

Results flagged for a closer look

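For 13 genes the siRNA difference had opposite signs in the lines, each past the median SD between probe sets of one gene in that line (0.25 for A375, 0.15 for SK-MEL-28). The same held for 8.74% of all 13794 genes. The difference between the lines was not tested. The A375 difference minus the SK-MEL-28 difference was -1.31 for RAD54L, -1.27 for FANCG, -1.23 for BARD1, -1.23 for BRIP1, -1.18 for EXO1, -1.03 for BRCA1, -0.98 for FANCI, -0.97 for CHEK1, -0.95 for BLM, -0.86 for MSH6, -0.81 for RAD54B and -0.79 for RPA2, all lower in A375 and higher in SK-MEL-28. It was 0.99 for XRCC2, the only one of the 13 that was higher in A375 and lower in SK-MEL-28. A further 4 genes had opposite signs with a smaller move in at least 1 line.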

How the results depend on the processing

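Under every alternative that gave a value the median of the repair genes stayed below 0 in A375, from -0.63 with quantile normalization again to -0.56 with the median of probe sets, and above 0 in SK-MEL-28, from 0.18 to 0.23, and 14 genes were lower in A375 and higher in SK-MEL-28 in each. Genes at least 1.5-fold lower in A375 numbered 10 to 16, the highest with quantile normalization again, where 3 were at least 2-fold lower. Members with an unadjusted p under 0.05 for the siRNA effect numbered 0 with the mean over all probe sets and 0 with no line block. Members passing for the line difference numbered 0 with no level minimum (17.3% of all genes passed) and 4 with a minimum of 7 (38.5%). They numbered 3 with quantile normalization again (30.2%), 3 with cyclic loess (30.6%) and 1 with the mean over all probe sets (28.4%). The cause of these changes was not tested. NBN reversed in A375, at 0.26 with the mean over all probe sets and 0.33 with their median, since 3 of its 4 probe sets there are higher. For single genes, 321 of 332 values moved by less than the spread between probe sets, and 2 reversed. Much of that count was fixed in advance. No level minimum, a minimum of 7 and values under 5 set to 5 changed no member value they gave. Neither the mean nor the median can move a gene with 1 probe set. With the mean 43 values moved by less, 4 by more and 1 reversed, and with the median 42, 5 and 1. In all, 9 moved by more without a reversal of a 1.5-fold value. In A375 these were ATM at 0.44 (mean) and 0.81 (median), and RAD50 at 0.34 and FANCI at -0.41 (medians). In SK-MEL-28 they were CHEK1 at 0.34 (mean), RAD51C at -0.03 (both) and NBN at -0.10 (mean) and 0.00 (median). The RAD50 and FANCI moves belong to medians of levels: the middle of their probe set differences was the main value, 0.66 and -0.70. The line as a block pairs the siRNAs within each line, and without it the siRNA effect was called for 0 genes as well. Leaving out an array leaves no residual degrees of freedom.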
